A study of Mus musculus with 8 samples.

Results

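Interneurons, the GABA-releasing cells that gate the output of hippocampal principal neurons, are sorted into subclasses by the peptides, calcium-binding proteins and enzymes they make. The genes described here are 10 such markers, Pvalb, Sst, Vip, Cck, Npy, Calb2, Reln, Crh, Nos1 and Cort, listed by gene symbol as known markers, out of 37310 genes in the count table. The samples are hippocampal RNA from 4 Nr2f1 heterozygous knockout mice (labelled Nr2f1 het) and from 4 wild-type mice (labelled WT), each a biological replicate. All 8 were B6.129 F1-hybrid animals of 3 months, labelled male, and no treatment was given. The labels do not say how the Nr2f1 allele was made. Nr2f1 encodes COUP-TFI, a nuclear receptor that patterns the developing cortex and hippocampus and is also made by interneurons that arise in the caudal part of the embryonic ganglionic eminence.

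The markers fall into several groups. Pvalb encodes parvalbumin, a calcium buffer of fast-spiking basket and axo-axonic cells, and Calb2 encodes calretinin, a related buffer of interneuron-selective interneurons. Calretinin is also made by immature granule neurons, by some mossy cells of the mouse dentate gyrus and by Cajal-Retzius cells, so it is not an interneuron marker alone in this tissue. Sst, Cort, Vip, Npy, Cck and Crh encode precursors of secreted neuropeptides. Of these, Cck is also transcribed in pyramidal neurons. Reln encodes the secreted glycoprotein reelin, made by Cajal-Retzius cells and by several interneuron classes, and Nos1 encodes the neuronal nitric oxide synthase.

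Libraries held 58717305 to 90043971 gene counts, and libraries of a genotype all differed from each other by more than sampling noise (chi-square 7.42 to 25.0 times its degrees of freedom). Nr2f1 lay between 49.5 and 54.1 CPM in WT and between 28.5 and 33.5 CPM in heterozygotes, where CPM is the read count scaled to a common, TMM-normalised library size (a fold of 0.601, edgeR adjusted p = 7.32e-05), so the libraries matched their genotype labels. The labels of sex were not matched: Xist, which coats an inactive X, had 463.2 to 601.4 CPM in the 8 libraries, while 14 genes of the Y chromosome together had 3 counts. Principal neuron markers were abundant in all libraries, with a summed level of 7577 to 8965 CPM over 7 genes. Markers of the choroid plexus, which borders the hippocampus, also differed between libraries. Their summed level over 12 genes was 85.9, 1463, 451.8 and 2140 CPM in WT libraries 1 to 4, and between 4154 and 4691 CPM in heterozygote libraries. For all 12 genes every heterozygote library was above every WT library. Of the 12, 0 passed the edgeR test described below, 11 had an unadjusted p under 0.05 and 4 passed in the DESeq2 Wald test. Without WT libraries 1 and 3, 9 passed in edgeR, and 6 passed within odd-numbered and 6 within even-numbered libraries alone.

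Each marker was detected in every library, from at least 59 reads for Crh to at most 18036 reads for Cck. Levels of different genes are comparable only per length, so CPM was divided by the length of the principal transcript in kilobases. On that scale the WT order was Cck at 245.5 ± 13.8, Sst at 215.4 ± 9.59, Npy at 63.9 ± 6.32, Pvalb at 29.9 ± 1.50 and Calb2 at 26.8 ± 3.48 CPM per kb (SD, n = 4 each). Nos1 at 17.6 ± 1.09, Vip at 11.6 ± 1.11, Reln at 11.1 ± 1.07, Cort at 4.27 ± 0.653 and Crh at 1.09 ± 0.124 CPM per kb followed (SD, n = 4 each). Among neighbours in this order, the WT libraries overlapped for Pvalb with Calb2 and for Vip with Reln, and for no other neighbours. The length chosen matters for these neighbours: with the length of all annotated exons joined, Sst at 215.4 stood above Cck at 147.3 CPM per kb, and Reln at 5.49 above Vip at 5.21 CPM per kb. In heterozygotes the 2 top peptides also overlapped, with Cck at 247.9 ± 18.9 and Sst at 246.6 ± 20.6 CPM per kb, and Calb2 at 37.9 ± 4.06 had a higher mean than Pvalb at 28.5 ± 1.75 CPM per kb (SD, n = 4 each).

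**Figure D1:**
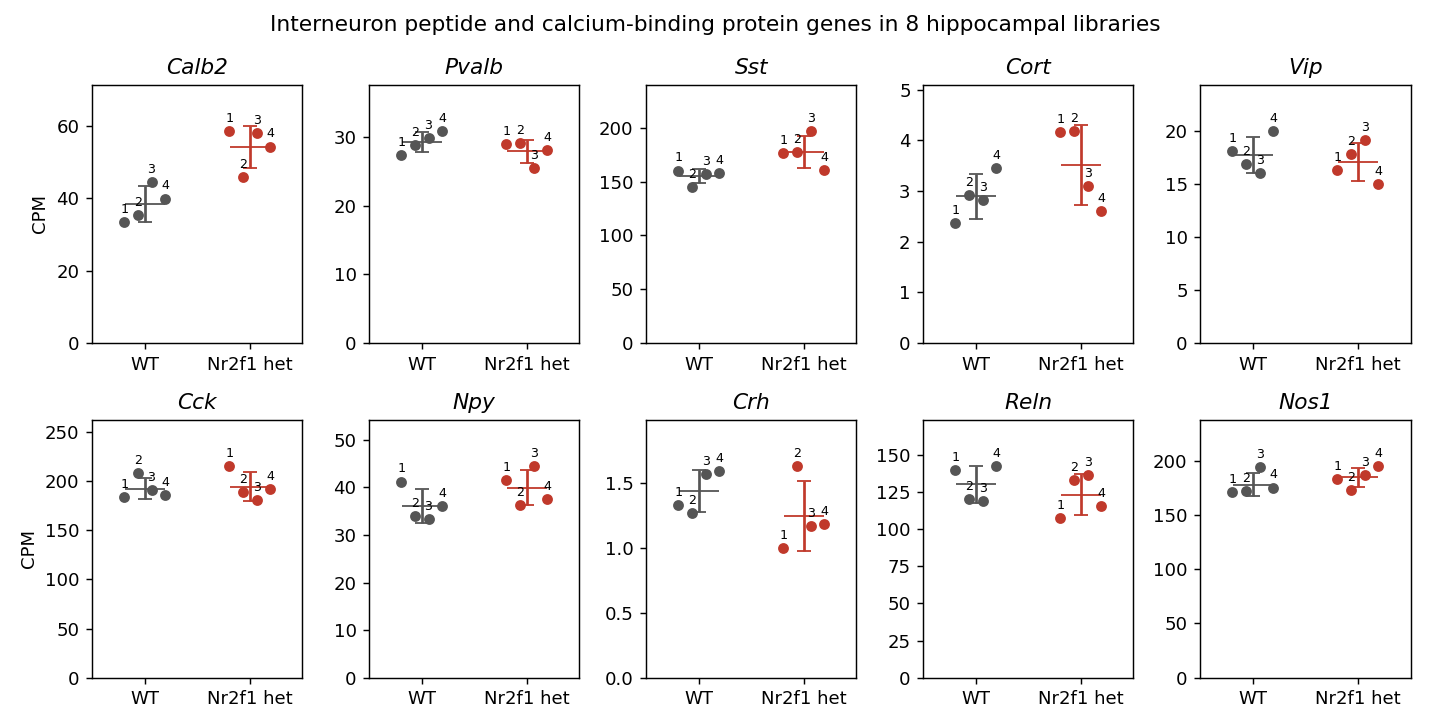
Level of each marker in CPM (vertical axes, from 0) in 4 WT (grey) and 4 Nr2f1 heterozygote (red) libraries, numbered by replicate, with the mean and SD as bars. The heterozygote points lie above the WT points for Calb2 and, by a narrow gap, for Sst, and overlap with them for the other 8 genes.

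The comparison asked whether the markers differ between Nr2f1 heterozygotes and WT animals. Of the 10 markers, Calb2 was higher in heterozygotes and none was lower at an adjusted p under 0.05 (edgeR's quasi-likelihood test, adjusted over the 17913 genes tested). Over all genes tested 2.99% passed, 2.62% as higher and 0.368% as lower. The median log2 fold change was 0.033 over the 10 markers and -0.0056 over all genes. The libraries of the genotypes did not overlap for 2 of the 10, Calb2 and Sst, against 10.6% of all genes tested. Both were higher in heterozygotes, as were 6.99% of all genes, while 0 of the 10 and 3.59% of all genes were lower without overlap. An unadjusted p under 0.05 was given by the same 2 markers, against 17.2% of all genes. The DESeq2 Wald test called 2 of the 10, both higher, against 1185 of 19161 genes, 916 higher and 269 lower. These shares over all genes are the background for the counts of each gene list. In bulk tissue, more cells of a type and more RNA per cell cannot be told apart.

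**Figure D2:**
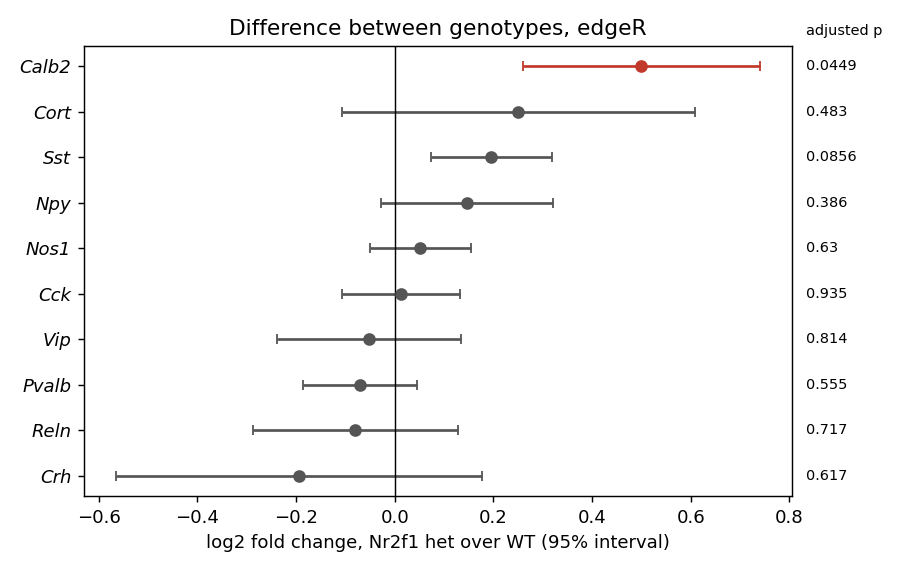
Log2 fold change of heterozygotes over WT for the 10 markers, with 95% intervals from edgeR as horizontal bars and the adjusted p at the right. Calb2 at 0.50, in red, is the marker past the threshold, the interval of Sst at 0.20 excludes 0 before adjustment, and the intervals of the other 8 include it.

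Calb2 (ENSMUSG00000003657.7, chromosome 8), the calretinin gene, was at 33.4, 35.3, 44.6 and 39.9 CPM in WT libraries 1 to 4 and at 58.4, 46.0, 58.1 and 54.3 CPM in heterozygote libraries 1 to 4. All 4 heterozygote libraries lay above all WT libraries, and the gap between the highest WT library, number 3, and the lowest heterozygote library, number 2, was narrow. The mean rose from 38.3 ± 4.98 to 54.2 ± 5.81 CPM (SD, n = 4 each), or 1.41-fold with a 95% interval of 1.20 to 1.67. On the log2 scale this was 0.50 ± 0.105 (standard error; edgeR adjusted p = 0.0449). By p, Calb2 was at rank 483 of the 535 genes that passed, close to the threshold. Permuting the genotypes over its CPM values (exact, two-sided) gave p = 0.0286, the smallest that 4 against 4 allows, and 0.143 adjusted over the 10 markers.

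The size of the Calb2 difference moved little with the processing, but the call did not hold under every setting. Over 22 alternatives the log2 fold change of Calb2 ran from 0.41 to 0.60, and in 9 of them the adjusted p stayed under 0.05. Leaving out 1 library at a time, the call was lost without WT library 1, 2 or 4 (edgeR adjusted p of 0.0883, 0.0929 and 0.0659) and without heterozygote library 1, 3 or 4 (edgeR adjusted p of 0.0939, 0.122 and 0.102). It was kept without WT library 3 or heterozygote library 2, the libraries nearest to the other genotype. Spike-in RNAs show that odd-numbered and even-numbered libraries received different mixes. Within odd-numbered libraries the log2 fold change of Calb2 was 0.59 (edgeR adjusted p = 0.112) and within even-numbered ones 0.41 (edgeR adjusted p = 0.193), with 2 libraries of each genotype in each. Once the choroid plexus score (the mean centred log2 CPM of those markers) was a covariate it was 0.44, and the adjusted p was 0.751; only 1 gene of the whole table passed in that fit.

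**Figure D3:**
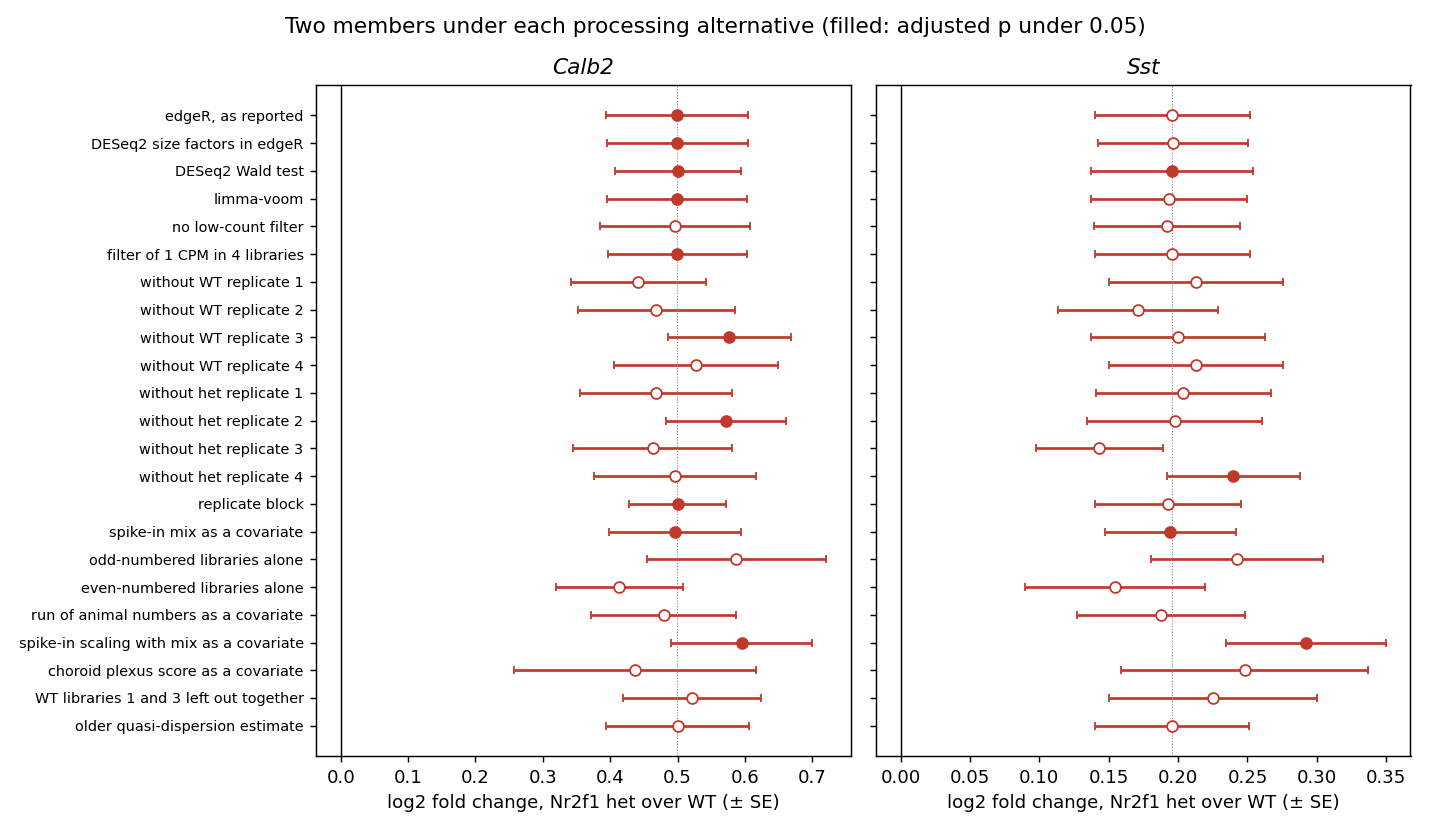
Log2 fold change of heterozygotes over WT with its standard error (horizontal axes, which differ in range) for Calb2 and Sst, as reported and under each of the 22 alternatives. Filled points have an adjusted p under 0.05. All Calb2 points lie between 0.41 and 0.60 and all Sst points between 0.14 and 0.29, while filled and open points mix in both panels.

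Pvalb (ENSMUSG00000005716.10, chromosome 15) had the least variable level within WT after Sst, with a coefficient of variation of 5.01%. It was at 27.4, 28.8, 29.9 and 30.8 CPM in WT libraries 1 to 4 and at 29.0, 29.1, 25.4 and 28.1 CPM in heterozygote libraries 1 to 4. The genotypes overlapped, and the fold of heterozygotes over WT was 0.953 with a 95% interval of 0.879 to 1.03 (edgeR adjusted p = 0.555). Its direction turned, to a log2 fold change of 0.028, in the fit that scaled libraries by their spike-in RNAs and also held the spike-in mix as a covariate.

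Sst (ENSMUSG00000004366.3, chromosome 16) encodes somatostatin, the peptide of dendrite-targeting interneurons such as the O-LM cells of CA1. Its precursor gene has a sister, Cort (ENSMUSG00000028971.4, chromosome 4), whose product cortistatin binds the same receptors. The promoter of Sst is the textbook case of a cAMP response element, the palindrome TGACGTCA, to which CREB binds. The windows of Sst, Cort and Vip from RefSeq (GRCm38.p6, 250 bases before to 50 after the start site, on the strand of the gene) are printed because Sst separated the genotypes, its sister gene did not, and Vip is the peptide against which Sst is compared within libraries below. Capitals mark the motif TGACGTCA in Sst and its shorter form CGTCA, on either strand, in Cort and Vip.
Sst, chr16:23890795-23891094, minus strand: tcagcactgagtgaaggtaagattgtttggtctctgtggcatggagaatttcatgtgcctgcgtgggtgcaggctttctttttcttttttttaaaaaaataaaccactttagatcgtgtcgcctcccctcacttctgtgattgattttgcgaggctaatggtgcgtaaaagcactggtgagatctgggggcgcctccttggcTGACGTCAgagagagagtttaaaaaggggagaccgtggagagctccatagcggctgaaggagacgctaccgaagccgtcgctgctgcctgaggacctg
Cort, chr4:149126714-149127013, minus strand: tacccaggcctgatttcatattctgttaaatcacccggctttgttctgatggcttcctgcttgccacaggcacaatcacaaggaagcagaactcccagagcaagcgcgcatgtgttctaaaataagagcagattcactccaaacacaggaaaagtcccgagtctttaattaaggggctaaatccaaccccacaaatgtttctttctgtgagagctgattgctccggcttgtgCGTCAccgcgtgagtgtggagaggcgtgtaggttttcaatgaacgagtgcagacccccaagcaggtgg
Vip, chr10:5638968-5639267, plus strand: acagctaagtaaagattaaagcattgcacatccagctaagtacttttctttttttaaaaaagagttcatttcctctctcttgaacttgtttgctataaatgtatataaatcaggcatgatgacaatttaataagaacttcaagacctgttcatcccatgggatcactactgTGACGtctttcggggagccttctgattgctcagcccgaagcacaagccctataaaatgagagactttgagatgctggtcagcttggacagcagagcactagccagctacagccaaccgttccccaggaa

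A window was listed for 8 of the 10 markers, not for Calb2 and Crh, and Pvalb had more than one. The palindrome TGACGTCA, which reads the same on both strands and holds CGTCA on each, began 48 bases before the start of Sst and was in no other marker window, against 1.79% of 32851 windows of all genes. CGTCA, on either strand, was in the windows of 5 markers, Sst, Cort, Vip, Cck and Nos1, against 20.8% of all windows. The letters AGGTCA, the element whose repeats COUP-TF receptors bind, were searched on both strands and were in none of the marker windows, against 16.3% of all windows. These matches describe the letters of the windows only.

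Sst was at 160.4, 145.1, 157.3 and 158.3 CPM in WT libraries 1 to 4 and at 176.7, 177.3, 196.8 and 160.5 CPM in heterozygote libraries 1 to 4. Heterozygote library 4 and WT library 1 were almost level, and the other 3 heterozygote libraries were clearly above all WT libraries. The means were 155.3 ± 6.91 CPM in WT and 177.8 ± 14.8 CPM in heterozygotes (SD, n = 4 each). The difference was 0.20 ± 0.0558 on the log2 scale (standard error), a fold of 1.15 with an unadjusted 95% interval of 1.05 to 1.25, and it did not pass (edgeR adjusted p = 0.0856). An exact two-sided permutation of Sst gave p = 0.0286, again the smallest possible, and 0.143 adjusted over the 10 markers. Sst did pass with the DESeq2 Wald test (adjusted p = 0.0183), with the spike-in mix as a covariate (edgeR adjusted p = 0.0438), without heterozygote library 4 (edgeR adjusted p = 0.0355) and with spike-in scaling and the mix covariate together (edgeR adjusted p = 0.00174).

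Cort had few reads, 178 to 333 per library. It was at 2.37, 2.93, 2.82 and 3.45 CPM in WT libraries 1 to 4 and at 4.16, 4.18, 3.10 and 2.60 CPM in heterozygote libraries 1 to 4. Heterozygote libraries 1 and 2 were above all WT libraries, while 3 and 4 lay within the WT range. The fold was 1.19 with a 95% interval of 0.928 to 1.53 (edgeR adjusted p = 0.483), so a change of the size seen for Calb2 is inside the interval for Cort.

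Vip (ENSMUSG00000019772.4, chromosome 10) encodes vasoactive intestinal peptide, made by interneurons that inhibit other interneurons. It ran from 16.0 to 19.96 CPM in WT and from 14.99 to 19.2 CPM in heterozygotes, with a fold of 0.965 and a 95% interval of 0.848 to 1.10 (edgeR adjusted p = 0.814). Cck (ENSMUSG00000032532.5, chromosome 9), the cholecystokinin gene, ran from 183.9 to 207.8 CPM in WT and from 180.8 to 215.1 CPM in heterozygotes. Its fold was 1.01 with a 95% interval of 0.929 to 1.10 (edgeR adjusted p = 0.935). The genotypes overlapped for both genes.

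Npy (ENSMUSG00000029819.6, chromosome 6), the gene of neuropeptide Y, a peptide of ivy, neurogliaform and many somatostatin cells, was at 41.2, 34.0, 33.4 and 36.0 CPM in WT libraries 1 to 4. In heterozygote libraries 1 to 4 it was at 41.5, 36.4, 44.5 and 37.6 CPM. WT library 1 was as high as heterozygote library 1, so the groups overlapped, and the fold was 1.11 with a 95% interval of 0.980 to 1.25 (edgeR adjusted p = 0.386). Npy passed in 1 of 22 alternatives, spike-in scaling together with the mix covariate (edgeR adjusted p = 0.0251). Crh (ENSMUSG00000049796.4, chromosome 3), the corticotropin-releasing hormone gene, was the lowest of the markers, with 59 to 143 reads per library. It ran from 1.27 to 1.59 CPM in WT and from 1.00 to 1.63 CPM in heterozygotes, at a fold of 0.874 with a 95% interval of 0.676 to 1.13 (edgeR adjusted p = 0.617).

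Reln (ENSMUSG00000042453.7, chromosome 5) was at 139.8, 120.2, 118.8 and 142.3 CPM in WT libraries 1 to 4 and at 107.8, 133.1, 136.4 and 115.6 CPM in heterozygote libraries 1 to 4. Both genotypes split into a higher and a lower pair of libraries, and the ranges overlapped widely. The fold was 0.946 with a 95% interval of 0.820 to 1.09 (edgeR adjusted p = 0.717). Nos1 (ENSMUSG00000029361.10, chromosome 5) ran from 171.1 to 194.5 CPM in WT and from 173.4 to 195.2 CPM in heterozygotes. Its fold was 1.04 with a 95% interval of 0.965 to 1.11 (edgeR adjusted p = 0.630), the narrowest interval of the 10 markers on the log2 scale. Reln and Nos1 have annotated antisense genes sharing exon bases (246 bases with Gm10475 for Reln and 268 bases with Gm26995 for Nos1). Gm10475 has its own row among the counted genes and Gm26995 does not. The library kit does not mark strand, and the counting settings were not given. How reads on the shared bases were assigned is thus not known.

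Ratios of 2 markers within a library do not depend on how libraries are scaled to each other. Of the 45 pairs of markers, the log2 ratio did not overlap between genotypes in 5, and Calb2 was in 3 of these. All 5 held Calb2 or Sst, the markers whose own libraries did not overlap, so the pairs add no separate support. The share over pairs of all genes was not computed. The log2 ratio of Calb2 to Nos1 was -2.23 ± 0.113 in WT and -1.77 ± 0.126 in heterozygotes (SD, n = 4 each), a difference of 0.45. The ratio of Pvalb to Calb2 went from -0.38 ± 0.135 to -0.95 ± 0.222, and that of Cck to Calb2 from 2.33 ± 0.210 to 1.84 ± 0.165 on the log2 scale (SD, n = 4 each). The remaining 2 pairs held Sst: its log2 ratio to Vip was 3.13 ± 0.126 in WT and 3.38 ± 0.057 in heterozygotes, and to Reln 0.26 ± 0.110 and 0.53 ± 0.130 (SD, n = 4 each). Each of these 5 pairs had an exact two-sided permutation p of 0.0286 and a Benjamini-Hochberg value of 0.234 over the 45 pairs, so none passed; the pairs were examined after the values of the single genes had been seen. The exact permutation p of the ratio of Sst to Calb2 was 0.0571, with a mean log2 ratio of 2.03 ± 0.183 in WT and 1.72 ± 0.176 in heterozygotes (SD, n = 4 each).

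The receptors of the peptides were compared with the same fit. Of 16 genes for receptors and the Crh-binding protein, 15 were tested, 1 was higher, none was lower and 14 did not pass, with a median log2 fold change of -0.060. An unadjusted p under 0.05 was given by 3 of the 15, and the DESeq2 Wald test called 1 higher and 1 lower. The gene that rose was Crhr2 (ENSMUSG00000003476.8), a receptor for Crh and urocortins. It was at 1.73, 3.43, 2.59 and 3.47 CPM in WT libraries 1 to 4 and at 5.37, 5.94, 6.02 and 6.01 CPM in heterozygote libraries 1 to 4. All heterozygote libraries were above all WT libraries, at 2.06-fold (edgeR adjusted p = 0.00819). Crhr2 was lowest in WT library 1 and next lowest in WT library 3, the same libraries in the same order as the summed choroid plexus markers. Under the fit with the choroid plexus score its log2 fold change was 0.44 in place of 1.04, and it did not pass (edgeR adjusted p = 0.667); it passed in the other 21 alternatives. The part of choroid plexus tissue in the level of Crhr2 was not tested.

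Among the other receptors, Npy5r, an appetite-related receptor of neuropeptide Y named here after its values were seen, had libraries that did not overlap, at 7.88 ± 0.279 CPM in WT and 6.68 ± 0.493 CPM in heterozygotes (SD, n = 4 each), and did not pass (edgeR adjusted p = 0.0983). Npy5r passed in 1 of 22 alternatives, the DESeq2 Wald test (adjusted p = 0.0471). The main receptor genes for somatostatin and cortistatin in these libraries, Sstr1 to Sstr4, had folds of 1.15, 1.01, 1.08 and 0.932, and the receptor genes of vasoactive intestinal peptide, Vipr1 and Vipr2, folds of 0.940 and 1.17. None of these passed (edgeR adjusted p of 0.364 to 0.893 over the 6 genes).

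In the reelin pathway list, which holds the receptors Vldlr and Lrp8, the adaptor Dab1 and downstream genes, 0 of 6 passed over all genes in edgeR, 2 had an unadjusted p under 0.05, and 2 passed in the DESeq2 Wald test, 1 in each direction. The lowest p belonged to Dab1, at 148.5 ± 3.20 CPM in WT and 138.0 ± 3.64 CPM in heterozygotes (edgeR adjusted p = 0.104), and to Vldlr, at 94.6 ± 2.29 and 101.4 ± 1.78 CPM (edgeR adjusted p = 0.108; SD, n = 4 each). In the nitric oxide list 1 of 9 tested genes was lower and none higher, with the same counts in the DESeq2 Wald test, and 4 had an unadjusted p under 0.05. It was Gucy1b1, the beta subunit of the soluble guanylate cyclase that nitric oxide activates, which fell from a mean of 155.2 ± 3.09 CPM (SD, n = 4) to 142.3 ± 2.05 CPM (SD, n = 4), with an edgeR adjusted p of 0.0444. Gucy1b1 lost its call when any 1 of the 8 libraries was left out, with an adjusted p of 0.0610 to 0.132, while its log2 fold change stayed between -0.13 and -0.11.

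Further interneuron genes were compared in the same way. Of 26, among them Gad1 and Gad2 for GABA synthesis, 0 passed in edgeR, against 2.99% of all genes tested. An unadjusted p under 0.05 was given by 9, against 17.2% of all genes. The DESeq2 Wald test called 4, 3 higher and 1 lower, against 1185 of 19161 genes. The median log2 fold change was 0.023, with 14 genes above 0 and 12 below. In 5 genes the libraries did not overlap, 4 higher and 1 lower, against 6.99% and 3.59% of all genes. The 2 with the lowest p were Tac1, the substance P precursor gene, at 5.51 ± 0.739 CPM in WT and 8.06 ± 1.66 CPM in heterozygotes (edgeR adjusted p = 0.0778), and Nts, the neurotensin gene, at 6.76 ± 0.705 and 5.43 ± 0.488 CPM (edgeR adjusted p = 0.0975; SD, n = 4 each). Gad1 had a fold of 0.988 (edgeR adjusted p = 0.873) and Gad2 a fold of 1.04 (edgeR adjusted p = 0.478). Slc32a1, the vesicular GABA transporter gene, named after its values were seen, lay above WT in every heterozygote library, at 60.5 ± 2.87 against 66.5 ± 2.39 CPM (SD, n = 4 each; edgeR adjusted p = 0.103). Of 8 tested relatives of Calb2 and Pvalb with EF-hand calcium-binding domains, 0 passed in edgeR, 2 had an unadjusted p under 0.05 and the DESeq2 Wald test called 2, both lower. These were the neuronal calcium sensor genes Ncald, at 0.885 of WT (edgeR adjusted p = 0.0554), and Vsnl1, at 0.853 of WT (edgeR adjusted p = 0.126). Calb1, the calbindin gene, was at 0.928 of WT (edgeR adjusted p = 0.498).

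Because Calb2 is made by several cell types, lists of their markers were set beside it. Of 5 Cajal-Retzius genes 2 were higher, Trp73 and Ebf3, and the summed level of the list ran from 7.63 to 9.44 CPM in WT and from 10.9 to 13.7 CPM in heterozygotes. Trp73, the p73 transcription factor gene, was at 5.65, 6.57, 5.75 and 6.17 CPM in WT libraries 1 to 4 and at 9.97, 7.22, 8.33 and 9.26 CPM in heterozygote libraries 1 to 4. It rose 1.43-fold (edgeR adjusted p = 0.0185). Heterozygote library 2 was the lowest of its genotype for both Trp73 and Calb2. Within WT, Trp73 was highest in library 2 and Calb2 in library 3. Ebf3 was at 1.12 ± 0.278 CPM in WT and rose 2.36-fold (edgeR adjusted p = 0.00445) to 2.65 ± 0.329 CPM (SD, n = 4 each). Among heterozygotes Ebf3 was lowest in library 1, at 2.38 CPM, where Calb2 was highest. The other Cajal-Retzius genes, Lhx1, Lhx5 and Nhlh2, were under 1 CPM in every library and did not pass. Reln, made by these cells and also by several interneuron classes, had a fold of 0.946. The part of Cajal-Retzius cells in the level of Reln was not tested. Trp73 is also transcribed in ependymal cells and Ebf3 in meningeal cells. Of 6 ependymal genes 4 were higher, Mia, Dynlrb2, Rsph1 and Ccdc153, and 6 in the DESeq2 Wald test. The count was 2 without WT library 1 or heterozygote library 1, and 1 without WT library 3, heterozygote library 2 or heterozygote library 4. That list summed to 10.4 to 20.7 CPM in WT and 29.8 to 45.3 CPM in heterozygotes, and 8 meningeal genes to 91.6 to 235.0 and 318.4 to 376.3 CPM. Much of the meningeal sum was Igf2 alone, at 43.1 to 156.4 CPM in WT and 229.2 to 271.0 CPM in heterozygotes. The order of the WT libraries in Igf2 was that of the summed choroid plexus markers. Of the 8 meningeal genes, 4 had libraries that did not overlap, all higher in heterozygotes, against 6.99% of all genes. All 8 had a log2 fold change above 0, with a median of 0.71. None of the 8 passed in edgeR with all libraries, 4 had an unadjusted p under 0.05 and 3 passed in the DESeq2 Wald test. In edgeR 4 passed without WT library 4 and 3 within odd-numbered libraries, but 0 within even-numbered libraries. Leaving out WT library 1, WT library 3, both of these, or heterozygote library 4 left 1 Cajal-Retzius gene past the threshold, and 0 passed within even-numbered libraries or once the choroid plexus score was a covariate.

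**Figure D4:**
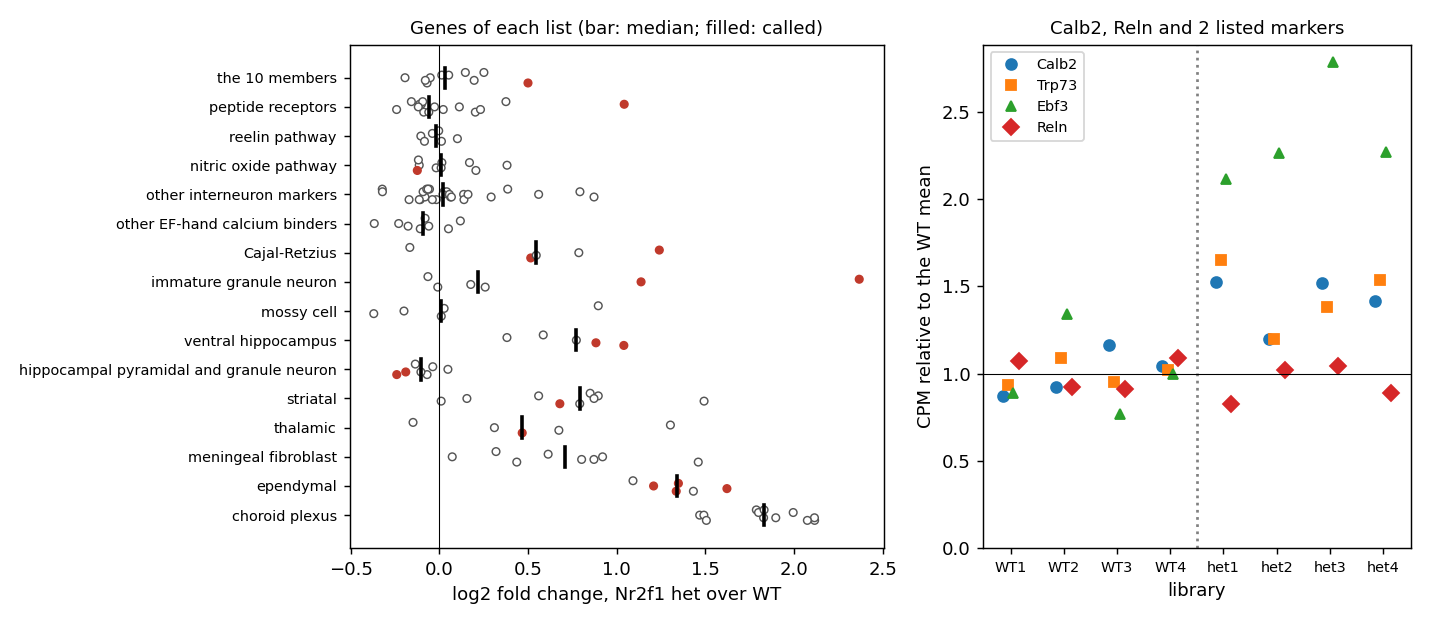
Left, log2 fold change of heterozygotes over WT for every tested gene of each list, with the list's median as a bar and genes past the threshold filled in red. Right, Calb2, Trp73, Ebf3 and Reln in each library as CPM relative to the WT mean. Calb2 and Trp73 lie between 1.20 and 1.65 in all 4 heterozygote libraries, Ebf3 above 2, and Reln on either side of 1.

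Of 6 genes of immature granule neurons and their progenitors, Eomes and Igfbpl1 were higher and the other 4 did not pass, among them Dcx at a fold of 0.994 (edgeR adjusted p = 0.977). The whole list summed to 39.3 to 44.6 CPM in WT and 41.6 to 46.9 CPM in heterozygotes, and its levels overlapped. Eomes rose 5.16-fold (edgeR adjusted p = 0.00436) from a low level of 0.280 ± 0.185 CPM (SD, n = 4), and Igfbpl1 rose 2.20-fold (edgeR adjusted p = 0.0309). With 1 library left out at a time, Eomes passed in 8 of 8 fits and Igfbpl1 in 3, those without WT library 2, WT library 4 or heterozygote library 3. Of 5 mossy cell genes 0 passed in edgeR, 2 had an unadjusted p under 0.05 and 1 passed, as higher, in the DESeq2 Wald test. The 2 went in opposite directions: Csf2rb2 was at 0.774 of WT, and Drd2, also in the striatal list, was 1.86-fold higher. The median log2 fold change of the list was 0.010. The summed level ran from 58.0 to 63.1 CPM in WT and from 58.0 to 68.2 CPM in heterozygotes. The ventral hippocampus list had 2 of 5 genes higher, Dlk1 at 2.06-fold and Htr2c, a serotonin receptor gene, at 1.84-fold (edgeR adjusted p of 0.0408 and 0.0455). The list summed to 207.0 to 285.0 CPM in WT and 321.8 to 393.8 CPM in heterozygotes. Much of this sum was Nnat alone, at 152.1 to 206.3 and 212.1 to 262.6 CPM, which did not pass (edgeR adjusted p = 0.107). Neither Dlk1 nor Htr2c passed when any 1 heterozygote library was left out. Dlk1 also lost its call without WT library 1 or 2 and Htr2c without WT library 2 or 3. The DESeq2 Wald test called 5 of the 5 genes. Adjusting for the choroid plexus score left 0 of the 5 past the threshold, and the log2 fold change of Htr2c was 0.50 in place of 0.88. Htr2c was at 25.1, 30.4, 37.0 and 44.4 CPM in WT libraries 1 to 4. Like the summed choroid plexus markers, it was lowest in WT library 1 and highest in WT library 4. WT libraries 2 and 3 were in the opposite order. The part of choroid plexus tissue in the level of Htr2c was not tested. Striatal genes summed to 198.1 to 213.7 CPM in WT and 213.6 to 328.0 CPM in heterozygotes with 1 of 9 higher, Ppp1r1b, and thalamic genes to 72.1 to 91.7 and 89.4 to 129.5 CPM with 1 of 5 higher, Prkcd. The DESeq2 Wald test called 5 striatal and 3 thalamic genes, all higher. Ppp1r1b passed only without heterozygote library 1 or 4, 2 of 8 such fits, and Prkcd in 4 of 8, losing its call without WT library 1, WT library 3, heterozygote library 2 or heterozygote library 4. Of the 7 principal neuron markers, Wfs1 at 0.846 and Mpped1 at 0.877 of WT were lower (edgeR adjusted p of 0.0362 and 0.0409). Each passed in 1 of the 8 fits with a library left out, Wfs1 without WT library 1 and Mpped1 without heterozygote library 2. The part of any of these cells or regions in the level of Calb2 was not tested.

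The genes whose pattern over the 8 libraries was most like that of Calb2 were found by the root mean square difference of log2 CPM, each gene centred on its own mean, among 13212 genes of at least 1 CPM. The closest was Acta2, the smooth muscle actin gene, with a difference of 0.0405 on the log2 scale. It was at 3.75 ± 0.503 CPM in WT and 5.46 ± 0.550 CPM in heterozygotes (SD, n = 4 each), 1.46-fold higher (edgeR adjusted p = 0.0241), and passed in 3 of 8 fits with a library left out, those without WT library 3, WT library 4 or heterozygote library 2. Plce1, a phospholipase C gene, followed at 0.108, Kif27, a kinesin gene, at 0.115, Tcerg1l at 0.118 and Casp8, a caspase gene, at 0.124. Plce1 rose 1.30-fold and Kif27 1.50-fold (edgeR adjusted p of 0.00970 and 0.00862), while Tcerg1l and Casp8, at 1.25-fold and 1.23-fold, did not pass (edgeR adjusted p of 0.105 and 0.269). None of these 5 genes is in the marker lists. They were chosen for a pattern like that of Calb2, which was higher in heterozygotes. A rise was thus built into the choice, and their tests add no separate support.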

How the data were processed

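The values deposited by the authors are raw read counts, 1 column for each of 8 animals and 1 row per Ensembl gene. The builds NCBIM37 and mm9 and the tools HTSeq, STAR 2.4.2a, DESeq2 and FastQC come from the submitters' processing notes; the annotation and the counting and strand settings were not given in the sources used here. Symbols came from GENCODE M21 (GRCm38) and matched 32620 of 37310 gene IDs; 92 spike-in rows, 0.0431% to 0.0787% of counts, were kept out. Per the labels' protocols, cDNA was amplified from 10 ng of total RNA with a kit that does not mark strand.

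Counts were normalised by TMM, filtered with filterByExpr (minimum count 10, total 15; 17913 genes) and compared with the robust quasi-likelihood test of edgeR 4.0.16 (version 4 dispersion estimate, in R 4.3.3). Adjusted p is by Benjamini-Hochberg over all genes tested, with 0.05 as the threshold. A standard error is the fitted change over the square root of F, and intervals are 95%. Single values were compared by exact permutation. Alternatives used DESeq2 1.42.0, limma 3.58.1 (voom), other filters, scalings, covariates and left-out libraries.

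Members and lists were chosen with earlier results of these data known. Named are the 10 markers and Nr2f1, list genes past the threshold (up to 4 per list and direction), the 2 with the lowest p of a pathway list with none, and the 5 genes most like a marker that passed; peptide receptor genes, Calb1, Gad1, Gad2, Dcx and others named beside the rule were added to fill in their lists. Pde2a of the nitric oxide list was not analysed here, and Cckar and Ocm were too low to test.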

Additional observations from a re-analysis of the deposited data

How the results depend on the processing

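The number of changed genes was 535, and 1185 with the DESeq2 Wald test, 78 within even-numbered libraries, 231 with the animal run (early or late animal numbers) as a covariate, 1387 with spike-in scaling (run with the mix as a covariate, so that both choices changed), 1 with the choroid plexus score, 170 without WT libraries 1 and 3, and 171 to 767 with 1 library left out (223 without WT library 1, 171 without WT 3, and 321, 315 and 281 without heterozygote 1, 3 and 4). The fit with spike-in scaling and the mix covariate moved the median log2 fold change of all genes from -0.0056 to 0.091. Calb2 kept its direction in all 22 alternatives and lost its call, on the log2 scale, at 0.50 without a low-count filter, 0.59 in odd-numbered and 0.41 in even-numbered libraries, 0.48 with the animal run, 0.44 with the choroid plexus score, 0.52 without WT libraries 1 and 3 and 0.50 with the older dispersion estimate of edgeR (adjusted p = 0.0516), an alternative chosen after seeing the data. With 1 library left out Calb2 ran from 0.44 to 0.58. Sst passed at 0.20 with the Wald test, 0.19 with the mix as a covariate and 0.29 with both spike-in choices, and ran from 0.14 to 0.24 with 1 library left out; Npy passed at 0.24 with both. Directions of markers that did not pass turned for Cck (-0.051 in even-numbered libraries, -0.041 with the choroid plexus score, -0.026 without WT libraries 1 and 3, -0.034 to 0.060 with 1 library left out), Vip (0.073 in odd-numbered libraries, 0.043 with both spike-in choices, -0.12 to 0.019 with 1 library left out), Pvalb (0.028) and Reln (0.017) with both spike-in choices, and Cort (-0.061) with the choroid plexus score. The cause of these changes was not tested. Nr2f1 kept its call in all 22 alternatives.

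Replicate numbers do not pair the animals in the labels. Deviations of same-numbered libraries correlated at -0.093 to 0.027 across genes, and 0 of 8 libraries correlated best with its own number. With the replicate number as a block 406 genes passed, Calb2 among them (log2 fold change 0.50, adjusted p = 0.0168). The intervals of Crh and Cort, the markers with the fewest reads, are the widest; the cause was not tested.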

Other observations

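Penk, the gene of the enkephalin precursor, is made by a subset of hippocampal interneurons and, at high levels, by striatal projection neurons. It was chosen after its values were seen. Penk was at 23.3, 19.6, 21.9 and 20.1 CPM in WT libraries 1 to 4 and at 23.4, 30.0, 53.3 and 47.0 CPM in heterozygote libraries 1 to 4. Heterozygote libraries 3 and 4 were far above the rest, heterozygote library 1 was just above the highest WT library, so the groups did not overlap, and the gene did not pass (1.83-fold, edgeR adjusted p = 0.170). Tac1 was also highest in heterozygote libraries 3 and 4, at 10.0 and 8.67 CPM, against 4.53 to 6.13 CPM in WT. The summed level of 9 striatal markers, a list that holds both genes, was 293.8 and 328.0 CPM in heterozygote libraries 3 and 4, 213.6 and 233.0 CPM in 1 and 2, and at most 213.7 CPM in WT.

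Pthlh, a peptide gene of fast-spiking interneurons also chosen after its values were seen, ran from 2.24 to 2.58 CPM in WT and from 2.69 to 3.14 CPM in heterozygotes, with no overlap, and did not pass (edgeR adjusted p = 0.174). Cckbr, the brain receptor gene of cholecystokinin, varied widely among libraries of each genotype. It was at 15.9, 14.0, 8.76 and 16.3 CPM in WT libraries 1 to 4 and at 7.85, 18.8, 16.2 and 7.26 CPM in heterozygote libraries 1 to 4, with a fold of 0.925 (edgeR adjusted p = 0.921). This gene and the split of its libraries were also chosen after the values were seen. The high Cckbr libraries, WT 1, 2 and 4 and heterozygote 2 and 3, included the 4 libraries highest in Reln. They also included WT library 2, which was in the lower WT pair for Reln at 120.2 CPM. A link between the 2 genes was not tested.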
